A study of Mus musculus with 4 samples.

Results

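The lipid chaperone genes *Fabp7*, *Fabp5*, *Fabp3*, *Fabp4* and *Dbi* were followed through the cells of the mouse dorsal root ganglion (DRG), the ganglion that houses the cell bodies of sensory neurons. They were taken by symbol, and all 5 had a row among the 33456 genes of each table. Single cell RNA-seq had been performed on 4 libraries from wild-type C57BL/6 female mice aged 8 to 12 weeks. Control 1 and control 2 came from uninjured ganglia, and injury 1 and injury 2 from ganglia taken 3 days after a crush of the sciatic nerve. The labels name L4 ganglia and the study's methods L4 and L5. The libraries numbered 1 and 2 are biological replicates, and a batch was made from the cells of 5 mice together, so no p-value measures the spread between animals. P-values for injury within a class of cells measure the spread between pools. Those that compare classes measure the scatter left after the differences between the 4 libraries were taken out.

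Fatty acid binding proteins (FABPs) are small cytosolic proteins that hold a long-chain fatty acid inside a barrel-shaped pocket and carry it between membranes, enzymes and nuclear receptors. FABP7, also known as brain lipid-binding protein, is known from radial glia and astrocytes. FABP3 was first described in heart, FABP5 in skin, and FABP4 in adipocytes and the endothelium of small vessels. *Dbi* encodes the acyl-CoA-binding protein, which carries fatty acids after their activation to acyl-CoA, and its other name, diazepam binding inhibitor, comes from an action of its peptides at GABA-A receptors. In the ganglion, satellite glial cells (SGC) wrap the neuronal cell bodies, myelinating Schwann cells wrap large axons, and non-myelinating glia accompany thin fibres.

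Every RNA molecule captured in this droplet method carries a unique molecular identifier (UMI), and 1 barcode stands for 1 cell. Of 6975 barcodes, 6095 passed the cell limits of the study (control 1 kept 1301, control 2 kept 1341, injury 1 kept 2377 and injury 2 kept 1076), with median depths of 2775 to 4845 UMIs per cell and library totals of 5585909 to 11210875 UMIs over all barcodes. Only 20 barcode sequences occurred in more than 1 library. Cells were assigned to classes by lists of marker genes that held none of the 5 members, and a class is named "-like" for that reason. A gate was passed by 4195 cells, and 1900 cells (31.2%) stayed ungated. The SGC-like gate held 61, 372, 511 and 218 cells in control 1, control 2, injury 1 and injury 2, so control 1 had few SGC-like cells (4.69% of its cells, against 20.3% to 27.7% in the other libraries). In the SGC-like cells *Kcnj10*, the potassium channel that defines SGC, was at 162 to 532 counts per 1000000 UMIs (CPM). The myelin gene *Mag* and the Schwann cell gene *Ncmap* were at no more than 6.84 CPM there, while the non-myelinating glia marker *Matn2* reached 226 to 361 CPM. Levels below are CPM of the summed cells of a class in a library with at least 10 such cells. As UMIs are counted once per molecule from the 3′ end, levels of different genes can be set beside each other without a correction for transcript length.

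*Dbi* and *Fabp7* were among the most abundant transcripts of SGC-like cells. By UMIs, *Dbi* ranked 3, 4, 3 and 3 among all genes in SGC-like cells of control 1, control 2, injury 1 and injury 2, and *Fabp7* ranked 7, 5, 5 and 5. *Fabp5* was a medium-level gene there, with ranks of 225 to 536. *Fabp3* gave 5 UMIs in all 1162 SGC-like cells and *Fabp4* gave 1. The SGC-like gate held 19.1% of the filtered cells but 80.0% of their *Fabp7* UMIs, 66.4% of their *Dbi* UMIs and 56.3% of their *Fabp5* UMIs. Most of the remaining UMIs of these genes were in ungated cells, which held 18.8%, 26.8% and 29.5%.

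**Figure D1:**
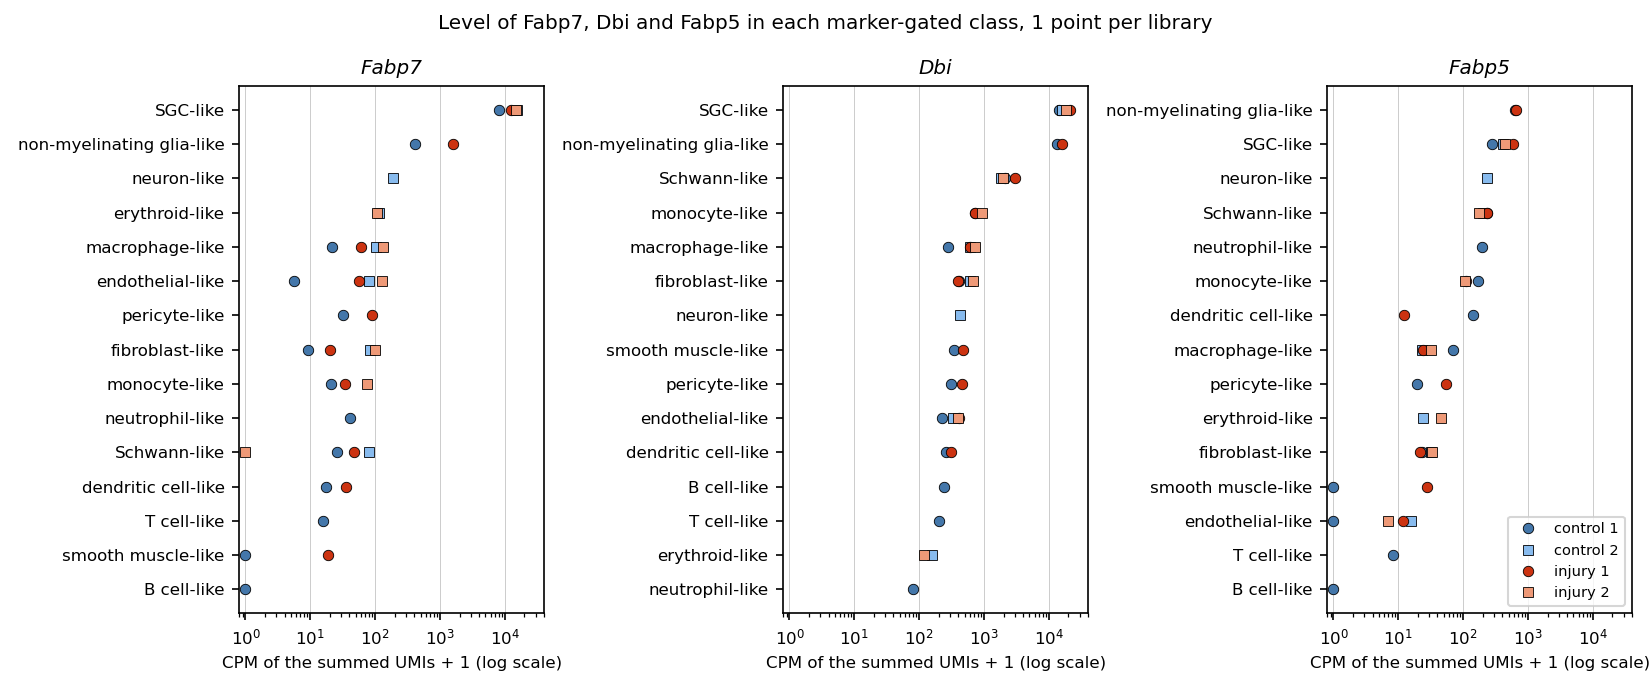
Levels of *Fabp7*, *Dbi* and *Fabp5* in each marker-gated class (rows, ordered by mean level), as CPM of the summed UMIs + 1 on a logarithmic axis, with 1 point per library (circles for libraries numbered 1, squares for those numbered 2, blue for control and red for injury). *Fabp7* stood at 8151 to 15372 CPM in SGC-like cells and at no more than 190 CPM in any class that is not glial, while the *Dbi* points of SGC-like and non-myelinating glia-like cells lay side by side and the *Fabp5* points fell off more gradually.

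*Fabp7* (ENSMUSG00000019874) lies on chromosome 10 at 57784881-57788450 of GRCm38 (mm10), on the forward strand, and its principal transcript has 4 exons. SGC-like cells contained 8151 CPM of *Fabp7* in control 1, 15372 in control 2, 12357 in injury 1 and 14604 in injury 2 (mean 12621 ± 3243, SD, n = 4 libraries). Control 1 was the lowest of the 4, and the libraries numbered 2 were above those numbered 1 in both conditions. Non-myelinating glia-like cells followed at 414 CPM in control 1 and 1608 in injury 1. Schwann-like cells had 24.8, 78.5, 46.0 and 0 CPM, which is 0% to 0.511% of the SGC-like level of the same library.

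The order of *Fabp7* levels over 15 classes fell steeply and then flattened. In pairwise contrasts (edgeR's quasi-likelihood test, adjusted over 8241 genes), SGC-like exceeded non-myelinating glia-like cells by 3.41 on the log2 scale (SE 0.39, adjusted p = 1.03e-08), a contrast in which 3.58% of all genes were called, and these exceeded the next class, neuron-like cells, by 3.62 (SE 0.67, adjusted p = 0.000117; 7.86% of genes called). Neuron-like cells were measured in 1 library, control 2, which had no value for non-myelinating glia-like cells, so this step compares different libraries and takes its spread from the other classes. None of the other 12 steps passed, the smallest adjusted p being 0.146, so neighbours from neuron-like to B cell-like cells were not told apart. Pairs further apart in that range were not tested. The SGC-like against Schwann-like contrast gave a log2 fold of 8.37 (SE 0.39, adjusted p = 2.22e-24; 9.55% of genes called), and non-myelinating glia-like cells exceeded Schwann-like cells by 4.95 (SE 0.46, adjusted p = 8.23e-12; 6.15% of genes called). With classes taken from clustering in place of gates, the step from SGC-like to non-myelinating glia-like cells was 1.63 with an adjusted p of 0.178. The clustered non-myelinating glia, 275 cells against 72 in the gate, held 1867 ± 309 CPM (SD, n = 2). The Schwann-like clusters likewise held 667 ± 730 CPM (SD, n = 4), with 266 cells against 230 in the gate.

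In the RefSeq promoter table (GRCm38.p6, 250 bases before and 50 after an annotated start) 3 of the 5 members had an entry. The windows of *Fabp7* and *Dbi* are shown because these genes carry the glial signal. Capitals mark the CCAAT box, which reads ATTGG on the other strand, and the single nuclear receptor site AGGTCA, which reads TGACCT there. The *Fabp7* window lies on the forward strand at chr10:57784673-57784972, and that of *Dbi*, for the start used by the downstream of its 2 entries, on the reverse strand at chr1:120120870-120121169.
Fabp7: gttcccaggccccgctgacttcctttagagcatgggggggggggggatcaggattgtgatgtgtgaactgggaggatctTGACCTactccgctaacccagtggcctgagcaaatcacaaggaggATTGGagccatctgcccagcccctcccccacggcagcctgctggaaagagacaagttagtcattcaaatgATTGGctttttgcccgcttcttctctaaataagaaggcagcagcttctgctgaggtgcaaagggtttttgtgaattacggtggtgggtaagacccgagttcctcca
Dbi: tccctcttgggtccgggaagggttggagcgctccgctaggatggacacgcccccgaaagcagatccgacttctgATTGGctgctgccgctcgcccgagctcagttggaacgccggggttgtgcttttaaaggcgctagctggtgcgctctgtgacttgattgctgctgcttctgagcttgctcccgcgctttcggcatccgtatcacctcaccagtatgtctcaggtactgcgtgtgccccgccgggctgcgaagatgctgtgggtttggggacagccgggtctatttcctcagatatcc
Both strands were searched for 5 motifs. CCAAT lay 126 and 56 bases before the *Fabp7* start and 176 bases before the *Dbi* start, and was absent from the *Fabp3* window. CCAAT is common, in 37.4% of all 32851 windows. AGGTCA was found 171 bases before the *Fabp7* start (16.3% of all windows) and in no other member window. The paired form of this site, 2 copies with 1 base between them (0.0396% of all windows), the TATA box TATAAA (13.6%) and the GC box GGGCGG (35.7%) were in none of the member windows. CpG dinucleotides numbered 6 in the *Fabp7* window, 22 in the *Dbi* window shown, 28 in its other window and 22 in that of *Fabp3*, against a median of 7 over all windows. A match of letters is a description of the sequence and was not tested as a binding site.

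Single SGC-like cells varied widely in *Fabp7*. The median cell had 11, 65.5, 25 and 69 *Fabp7* UMIs in control 1, control 2, injury 1 and injury 2, at median depths of 2386, 4334, 3070 and 5010 UMIs. Less than 1000 CPM of *Fabp7* was found in 24.6% of the SGC-like cells of control 1, 1.34% of control 2, 7.44% of injury 1 and 1.83% of injury 2. The libraries numbered 1, which were shallower, thus held more SGC-like cells with little *Fabp7*. With every cell thinned to 1000 UMIs, 80.0%, 98.6%, 93.3% and 98.7% of SGC-like cells had a *Fabp7* UMI, so the libraries numbered 1 were also the lower ones at equal depth. Unthinned, the mean over the libraries was 95.5%, against 92.7% at 1000 UMIs.

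**Figure D2:**
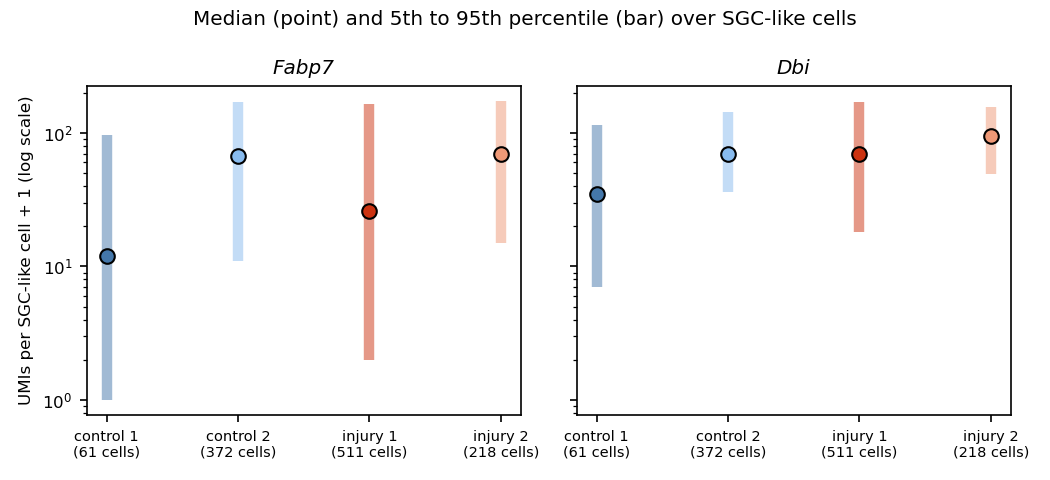
*Fabp7* and *Dbi* UMIs per SGC-like cell in each library, on a logarithmic axis (UMIs + 1), as the median (point) and the range from the 5th to the 95th percentile of cells (bar). The *Fabp7* median lay at 11 UMIs in control 1 and 25 in injury 1 and at 65.5 and 69 in control 2 and injury 2, while the *Dbi* median was at least 34 in every library.

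*Dbi* (ENSMUSG00000026385, chromosome 1, 120113280-120121078, reverse strand, GRCm38) was high in both SGC-like and non-myelinating glia-like cells. SGC-like cells held 14344, 15849, 20877 and 18397 CPM (mean 17367 ± 2877, SD, n = 4). Non-myelinating glia-like cells held 13486 CPM in control 1 and 16134 in injury 1, where *Dbi* ranked 2 and 3 among all genes by UMIs. The SGC-like level exceeded this by 0.51 on the log2 scale (SE 0.26, adjusted p = 0.324), which did not pass the test. Schwann-like cells had 2132, 1819, 3034 and 1947 CPM (mean 2233 ± 549, SD, n = 4), far below both other glial classes and above every class that is not glial.

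Below the glia the order of *Dbi* levels was less clear. Non-myelinating glia-like cells exceeded Schwann-like cells by 2.44 on the log2 scale (SE 0.25, adjusted p = 1.08e-10) and SGC-like exceeded Schwann-like cells by 2.95 (SE 0.22, adjusted p = 3.25e-16). Schwann-like cells exceeded monocyte-like cells, which were led by *Lyz2*, *Elane* and *Mpo* and had 712 to 925 CPM, by 1.52 (SE 0.25, adjusted p = 1.73e-06), a difference under the study's fold limit. None of the other 12 steps passed the test. Macrophage-like cells had 278, 607, 598 and 722 CPM, fibroblast-like cells 400 to 666 CPM and endothelial-like cells 221 to 406 CPM. Erythroid-like cells were low, at 158 and 118 CPM. At 1000 UMIs per cell, *Dbi* was found in at least 99.9% of SGC-like cells of each library, in 78.7% to 94.0% of Schwann-like cells and in a mean of 37.3% ± 8.4 (SD, n = 4) of macrophage-like cells, with 100%, 99.5% and 77.5% unthinned.

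Among the glia, the ratio of *Dbi* to *Fabp7* UMIs was lowest in SGC-like cells, and its ranges in the other glia overlapped. SGC-like cells held 1.76, 1.03, 1.69 and 1.26 *Dbi* UMIs for each *Fabp7* UMI, non-myelinating glia-like cells 32.5 and 10.0, and Schwann-like cells 85.8, 23.2 and 65.9 in the 3 libraries with a *Fabp7* UMI in that class. In all 68 non-myelinating glia-like cells of control 1 and injury 1 *Dbi* UMIs outnumbered those of *Fabp7*, whereas this was so in 88.5%, 57.3%, 84.3% and 67.4% of SGC-like cells. The Schwann-like ratios rest on 5, 11 and 9 *Fabp7* UMIs.

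*Fabp5* (ENSMUSG00000027533, chromosome 3, 10012548-10016607, forward strand, GRCm38) was highest in the same glia but more evenly spread than *Fabp7* or *Dbi*. Non-myelinating glia-like cells had 638 and 656 CPM in control 1 and injury 1, and SGC-like cells 280, 407, 592 and 446 CPM (mean 431 ± 128, SD, n = 4). Schwann-like cells had 229, 200, 235 and 175 CPM. SGC-like exceeded Schwann-like cells by 1.11 on the log2 scale (SE 0.26, adjusted p = 0.000787), below the fold limit, while SGC-like and non-myelinating glia-like cells differed by -0.13 (SE 0.35, adjusted p = 0.958).

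Outside the glia, *Fabp5* was found in neuron-like cells at 233 CPM (22 UMIs in 11 cells of control 2) and in neutrophil-like cells at 197 CPM (5 UMIs in 10 cells of control 1). Monocyte-like cells had 171, 110 and 105 CPM. Macrophage-like cells had 69.4 CPM in control 1 and 22.0 to 30.4 CPM in the others, and in control 1 the mean over single cells was 28.0 CPM, so a few cells held much of the sum. Endothelial-like cells were low with 0 to 14.9 CPM. T cell-like cells had 7.31 CPM and B cell-like cells no *Fabp5* UMI, each in 1 library. None of the 14 steps between neighbours in the order of *Fabp5* levels passed edgeR's test, the smallest adjusted p being 0.082, so neighbours were not told apart. Some classes further apart did differ, as SGC-like exceeded Schwann-like cells by 1.11 on the log2 scale, under the fold limit. For every 100 *Dbi* UMIs there were 1.96 to 2.84 *Fabp5* UMIs in SGC-like cells, 4.73 and 4.07 in non-myelinating glia-like cells and 7.76 to 11 in Schwann-like cells.

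*Fabp3* (ENSMUSG00000028773, chromosome 4, 130308595-130315463, forward strand, GRCm38; it overlaps *Zcchc17* and *Gm10570* on the other strand) was a transcript of neuron-marked cells and was rare elsewhere. Neuron-like cells of control 2, the only library with at least 10 of them, held 169 CPM (16 UMIs in 11 cells). Pericyte-like cells had 43.6 and 9.76 CPM in control 1 and injury 1 (9 UMIs in all), smooth muscle-like cells 32.0 and 0 CPM, and SGC-like cells 0, 1.68, 1.03 and 0 CPM. No *Fabp3* UMI was found in 7 classes, the non-myelinating glia-like one among them. The limits on cells removed most of this gene, as 87.2% of its 942 UMIs sat in the 880 barcodes outside the limits, against 24.5% for *Fabp7*, 19.9% for *Dbi*, 51.8% for *Fabp5* and 32.1% for all UMIs.

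The barcodes above 15000 UMIs were therefore examined as well. Those with at least 4 of 8 neuron markers numbered 22, 123, 34 and 67 in control 1, control 2, injury 1 and injury 2, with median depths of 22450 to 35417 UMIs. They held 58.8, 78.4, 79.2 and 118 CPM of *Fabp3*, found in 72.7%, 65.0%, 76.5% and 77.6% of the barcodes. *Fabp5* was higher there than in any gated class that is not glial, at 361, 315, 721 and 415 CPM. *Dbi* stood at 202, 542, 424 and 618 CPM, within the range of the classes that are not glial. *Fabp7* varied the most, at 7.46, 340, 94.1 and 282 CPM, while the 6 SGC reference genes summed to 128 to 155 CPM in each library. In neuron-like cells of control 2 *Aldoc*, which is among these genes, gave 359 of their 402 CPM. The sum can therefore not show how much glial RNA these barcodes held. Whether *Fabp7* in these barcodes came from the neurons or from attached glia or free RNA was not tested.

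**Figure D3:**
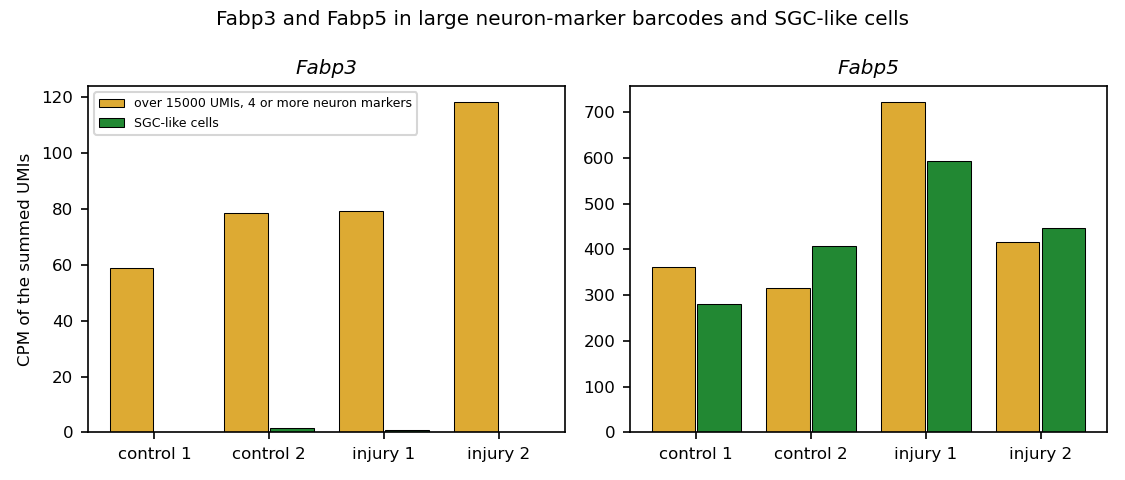
Levels of *Fabp3* and *Fabp5* (CPM of the summed UMIs, linear axis from 0) in each library, in barcodes over 15000 UMIs with at least 4 neuron markers (yellow bars) and in SGC-like cells (green bars). *Fabp3* lay at 58.8 to 118 CPM in the neuron-marked barcodes and at no more than 1.68 CPM in SGC-like cells, whereas the *Fabp5* bars of both were of similar height.

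*Fabp4* (ENSMUSG00000062515, chromosome 3, 10204088-10208576, reverse strand, GRCm38) was found in few barcodes. It lies 187480 bases from *Fabp5* with *Pmp2*, the peripheral myelin fatty acid binding protein, and *Fabp9* between them. In total 200 UMIs were found in 47 barcodes, and 78% of them in 10 barcodes with at least 5 UMIs each, the highest with 41. Of these 10, 8 had at least 3 of the 9 endothelial markers, and they came from all 4 libraries. Only 3 passed the endothelial-like gate, since the other 7 were ungated. Endothelial-like cells had 0, 2.48, 65.9 and 18 CPM, and the 65.9 CPM of injury 1 came from 1 cell with 30 UMIs. With clusters in place of gates these levels were 0, 36.6, 73.0 and 17.7 CPM. In control 1 no *Fabp4* UMI was found in 55 endothelial-like cells. Given counting error, the share of such cells with a detectable UMI could be as much as 5.45% (3 cells). This sets no limit on the share of cells expressing the gene.

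Each class was also tested against the mean of the other classes, with all 5 members passing the filter on low counts. In SGC-like cells 3 of 5 were called higher (adjusted p under 0.05 and log2 fold of 2 or more), where 18.1% of all 8241 genes were called higher. The log2 folds were 8.00 for *Fabp7* (SE 0.21, adjusted p = 3.44e-35), 5.12 for *Dbi* (SE 0.14, adjusted p = 2.07e-34) and 3.47 for *Fabp5* (SE 0.25, adjusted p = 2.77e-17). The same 3 were called in non-myelinating glia-like cells, with 4.35, 4.58 and 3.62, against 10.3% of all genes. In Schwann-like cells *Fabp5* was called at 2.28 (14.9% of all genes), and *Dbi* at 1.96 passed the p but not the fold limit. *Fabp5* fell under that limit there with clusters in place of gates (1.35) and without control 1 (1.78), and *Dbi* was over it, at 2.04 to 2.12, with a stricter gate, with no library block, without control 2 and without injury 2. In neuron-like cells *Fabp3* (6.59, SE 1.25, adjusted p = 8.04e-05) and *Fabp5* (2.08, SE 0.73, adjusted p = 0.041) were called (11.7% of all genes). These rest on 11 cells of 1 library, which is assumed to vary like the other classes. In pericyte-like cells *Fabp3* (4.28, SE 1.17, adjusted p = 0.005) was called (15.0%). No member was called in the other 10 classes, where 17.0% of all genes were called in endothelial-like, 17.0% in macrophage-like, 19.4% in fibroblast-like, 11.2% in smooth muscle-like, 9.54% in dendritic cell-like, 9.32% in monocyte-like, 7.91% in T cell-like, 7.84% in erythroid-like, 3.60% in neutrophil-like and 2.83% in B cell-like cells, so *Fabp4* was called nowhere. These folds are set against a mean that includes classes without a UMI, so their size depends on the prior count of the fit, and the pairwise contrasts above do not share this limit to the same degree.

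RNA that leaks from broken cells enters other droplets, so the level of glial transcripts was read in T cell-like, B cell-like, neutrophil-like and erythroid-like cells pooled per library. *Fabp7* was at 15.1 CPM (exact 95% Poisson interval 3.10 to 44.0) in control 1, 117 (53.5 to 222) in control 2, 117 (58.4 to 209) in injury 1 and 100.4 (58.5 to 161) in injury 2, from 3, 9, 11 and 17 UMIs. These are 0.185%, 0.761%, 0.947% and 0.687% of the SGC-like level. In injury 1, 9 of the 11 UMIs were in 5 neutrophil-like cells, and without that gate the level was 25.1 CPM (3.04 to 90.7). The lowest value was in control 1, where *Fabp7* made up 0.0434% of all UMIs of the library, against 0.288% to 0.463% in the others. Intervals here cover counting error only.

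*Fabp7* in the larger classes that are not glial was likewise lowest in control 1. Macrophage-like cells had 20.6, 101, 58.8 and 133 CPM, endothelial-like cells 4.61, 78.2, 54.9 and 126 CPM and fibroblast-like cells 8.35, 80.8, 19.0 and 98.0 CPM. All 3 were lowest in control 1 and highest in injury 2, and each value of the gated cells lay within or below the interval of the pooled blood cells of its library. With clusters in place of gates the mean levels were higher and varied more between libraries, at 233 ± 215 CPM in fibroblast-like, 308 ± 251.1 in endothelial-like and 502 ± 550 in macrophage-like cells (SD, n = 4) and 1527 ± 2298 in pericyte-like cells (SD, n = 3). The cause of this difference was not tested. At 1000 UMIs per cell, 1.80%, 9.65%, 5.21% and 11% of macrophage-like cells had a *Fabp7* UMI, and a mean of 24.2% unthinned. Other SGC transcripts were found in the same cells. For each UMI of the 6 SGC reference genes (*Aldoc*, *Mlc1*, *Rlbp1*, *Hes5*, *Cdh19*, *Gpr37l1*), macrophage-like cells held 2.67, 2.09, 4.68 and 3.12 *Fabp7* UMIs and SGC-like cells 4.67, 6.74, 5.51 and 7.01. Fibroblast-like cells held 0.429, 3.64, 0.889 and 2.41, and endothelial-like cells 3, 4.17 and 3.5 in control 2, injury 1 and injury 2, while control 1 had no reference UMI in that class. Schwann-like cells held 0 to 0.282, as they contained reference transcripts of their own (263 to 379 CPM). In fibroblast-like cells 1 of the 6 reference genes was itself called higher (19.4% of all genes were), so their ratios may include such transcripts too. *Cdh19* was higher in non-myelinating glia-like (531 CPM) than in SGC-like cells (127 CPM). How much of the *Fabp7* in these classes was free RNA was not tested.

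For *Dbi* the pooled blood cells give an upper limit of free RNA, since many cell types make it. It was at 191, 767, 447 and 154 CPM, or 1.33%, 4.84%, 2.14% and 0.834% of the SGC-like level. The high value of control 2 rests on the neutrophil-like gate, whose 2 cells held 45 of 59 UMIs. Without that gate the levels were 207, 198, 188 and 127 CPM, and for *Fabp7* 11.5, 85.0, 25.1 and 108 CPM. Schwann-like and monocyte-like cells lay above the pooled *Dbi* levels in each library with a value, with and without that gate. Macrophage-like cells (607 CPM) and fibroblast-like cells (596 CPM) lay below the pooled level of 767 CPM in control 2, and fibroblast-like cells (400 CPM) below that of 447 CPM in injury 1, while both lay above every level without the neutrophil-like gate, a choice made after the data were seen.

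**Figure D4:**
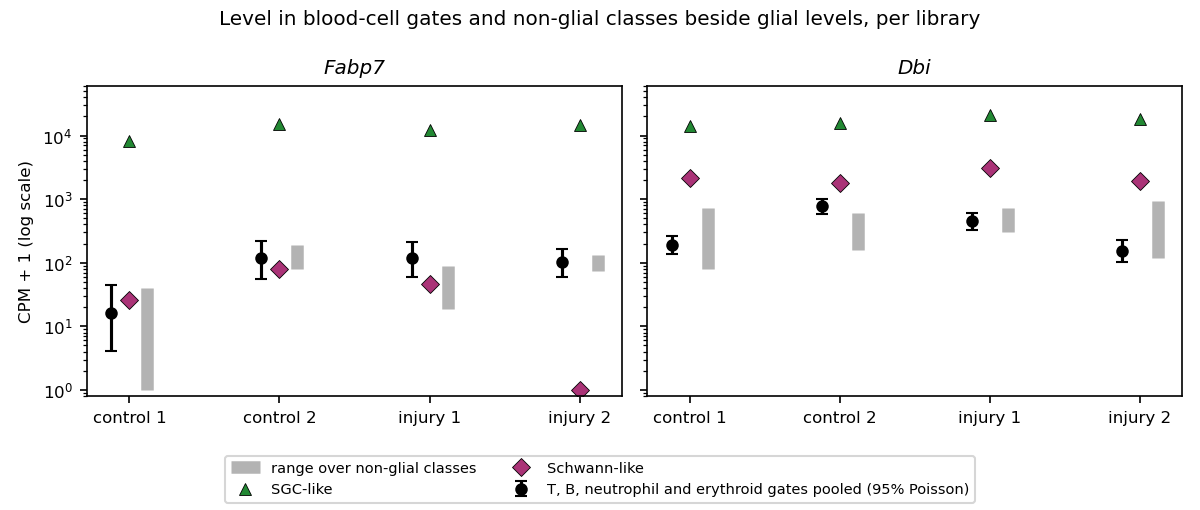
*Fabp7* and *Dbi* levels per library (CPM + 1, logarithmic axis) in the pooled blood cell gates (black point with exact 95% Poisson interval), over the classes that are not glial (grey bar from lowest to highest), in Schwann-like cells (diamond) and in SGC-like cells (triangle). *Fabp7* in the pooled gates was at 15.1 to 117 CPM with an interval that overlapped the grey bar in each library, whereas SGC-like cells lay at 8151 CPM or above.

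After nerve crush no member passed the test in any of the 5 classes with at least 10 cells in all 4 libraries, and 0% of all genes tested were called in each. In SGC-like cells the log2 change from control to injury was 0.26 for *Fabp7* (SE 0.40), 0.46 for *Dbi* (SE 0.32) and 0.63 for *Fabp5* (SE 0.30), each with an adjusted p of 0.9998 from edgeR's quasi-likelihood test. *Dbi* and *Fabp5* were higher in both injury libraries than in both controls, as were 10.1% of the 8533 genes tested in SGC-like cells, while the *Fabp7* values of the conditions overlapped. Without control 1 the *Fabp7* change turned to -0.19. Across all genes of these cells none was called, 98 had an unadjusted p under 0.05, and DESeq2 called 1 gene, none of the members.

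No member was called in the other classes either. *Dbi* changed by a log2 value of 0.31 in Schwann-like (SE 0.30), 0.45 in macrophage-like (SE 0.37), 0.12 in fibroblast-like (SE 0.31) and 0.59 in endothelial-like cells (SE 0.26), where both injury libraries were above both controls, as for 9.65% of genes. *Fabp5* in macrophage-like cells gave -1.15 (SE 0.47, adjusted p = 0.558), with control 1 as the high library. *Fabp7* in endothelial-like cells gave 0.86 (SE 0.64), and without control 2 it was called at 4.29 (adjusted p = 0.000224), as was *Fabp4* there at 7.06 (adjusted p = 0.021), among 0.368% of all genes called in that fit. Both calls set the injury libraries against control 1 alone, with 1 *Fabp7* UMI and no *Fabp4* UMI, the library with the lowest free *Fabp7*. *Fabp4*, which did not pass the filter on low counts with all 4 libraries, was also called in endothelial-like cells with no such filter (4.37, adjusted p = 5.35e-06; 0.108% of genes called), without control 1 (4.05, adjusted p = 0.000315; 0.216%) and without injury 2 (5.07, adjusted p = 0.00035; 0.249%). A single injury 1 cell holds 30 of the 41 *Fabp4* UMIs of the class, and with clusters in place of gates 35 UMIs fell in endothelial-like cells of control 2. Unadjusted, 112 of 5770 genes in endothelial-like, 155 of 7333 in fibroblast-like, 591 of 6670 in macrophage-like and 50 of 2549 in Schwann-like cells had a p under 0.05, and DESeq2 called 1, 3, 10 and 0.

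The difference of the injury change between SGC-like cells and the mean of the other 4 classes was tested in 1 model. It was -0.25 on the log2 scale for *Fabp7* (SE 0.48), 0.04 for *Dbi* (SE 0.27) and 1.00 for *Fabp5* (SE 0.39), each with an adjusted p of 1 among 9232 genes, 0% of which were called. In the large neuron-marked barcodes the injury change was 0.65 for *Fabp3* (SE 0.26, adjusted p = 0.467), 0.90 for *Fabp5* (SE 0.33, adjusted p = 0.43), 0.62 for *Dbi* (SE 0.43, adjusted p = 0.63) and 0.23 for *Fabp7* (SE 1.16, adjusted p = 0.962). None of 10479 genes was called there (0%), and 1095 had an unadjusted p under 0.05. In whole classes, a change in RNA per cell and a change in which cells passed a gate cannot be told apart.

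**Figure D5:**
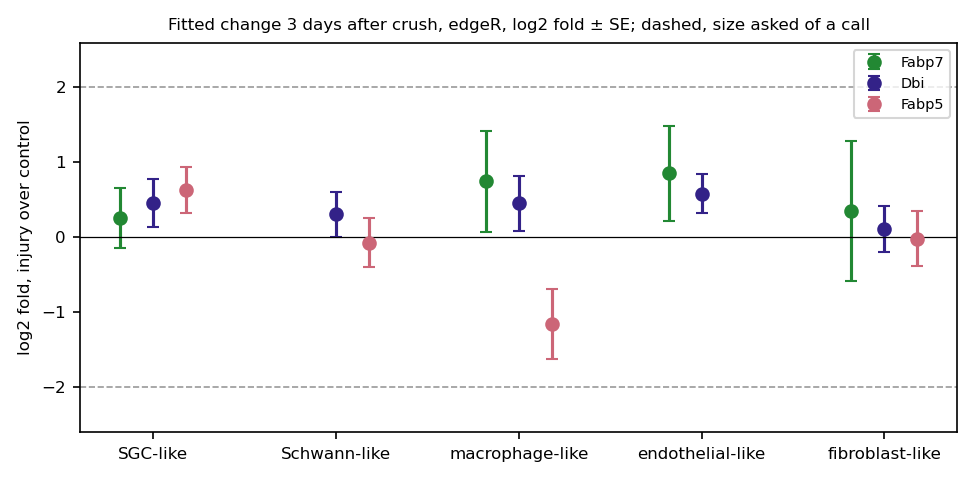
Log2 change after injury (injury over control) of *Fabp7*, *Dbi* and *Fabp5* where they passed the filter in each of 5 classes, with bars of 1 SE from edgeR's fit to 4 libraries and dashed lines at a log2 fold of 2 in either direction. In SGC-like cells the changes were 0.26, 0.46 and 0.63 for *Fabp7*, *Dbi* and *Fabp5*, and no point reached a dashed line.

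Other genes of fatty acid handling were highest in several different classes. Among the lipid-binding proteins related to the FABPs, *Pmp2* was at 596 ± 513 CPM (SD, n = 4) in Schwann-like cells and at 0 in SGC-like cells, and *Rbp7*, a retinol-binding relative, was at 326 ± 120 CPM in endothelial-like cells. *Crabp1* (55.4 CPM) and *Crabp2* (26.1 CPM), which bind retinoic acid, were called higher in SGC-like cells. *Crabp1* was at 52.9 CPM in neuron-like cells, in 1 library, and *Crabp2* was highest in fibroblast-like cells at 117 CPM. *Fabp1*, *Fabp2*, *Fabp6*, *Fabp9* and *Fabp12* had no UMI in the gated classes. Of the other acyl-CoA-binding proteins only *Acbd4* (40.4 CPM, log2 fold 2.70) was called in SGC-like cells, 1 of 5 tested of 7. The share of all genes called higher in that contrast was 18.1%. *Acbd4* was at similar levels in non-myelinating glia-like (42.3 ± 59.8 CPM, SD, n = 2) and neuron-like cells (42.3 CPM, 1 library). *Eci2*, an enoyl-CoA isomerase with an acyl-CoA-binding domain, peaked in the SGC-like class (216 ± 20.3 CPM). Its log2 fold of 1.71 in that class was under the limit. This list's median log2 fold was 1.18, against 0.58 over all genes.

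Of the genes that bring in and activate fatty acids, 4 of 10 tested (of 15 listed) were called higher in SGC-like cells and none lower, where 18.1% of all genes were called higher, and their median log2 fold was 0.60 against 0.58 over all genes. In Schwann-like cells 4 were called higher and 1 lower (median 1.93, against 0.45 over all genes), where 14.9% of all genes were called higher. In macrophage-like cells 4 were called higher and none lower (median 1.49, against 0.77), where 17.0% of all genes were called higher. The share of all genes called lower was not counted. In SGC-like cells *Acsbg1*, an acyl-CoA synthetase, was at 570 ± 153 CPM (log2 fold 7.28), *Slc27a1*, a fatty acid transporter, at 234 ± 49.4 CPM (5.83), and the synthetases *Acsl3* and *Acsl6* at 52.9 and 18.1 CPM (2.80 and 4.66). *Acsl3* and *Acsl6* were higher in neuron-like cells, at 84.6 and 63.4 CPM in 1 library. The uptake receptor *Cd36* was instead highest in macrophage-like cells (148 ± 47.4 CPM), lipoprotein lipase *Lpl* in fibroblast-like cells (135 ± 46.3 CPM), and *Gpihbp1*, which anchors that lipase on capillary walls, in endothelial-like cells (457 ± 95.3 CPM). These 3 were below 1 CPM in SGC-like cells. Of the others at 50 CPM or more, *Slc27a4* and *Acsl1* were highest in neutrophil-like cells (158 and 78.8 CPM, 10 cells of 1 library) and *Acsl5* in T cell-like cells (95 CPM, 1 library).

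Among the receptors and stores, *Rxrg*, a retinoid X receptor, was at 345 ± 36.4 CPM (SD, n = 2) in non-myelinating glia-like and 57.8 CPM in SGC-like cells, and was called in both (log2 folds of 6.91 and 4.86), and also in neuron-like cells (6.06), a class with 1 library. It was the only 1 of 6 nuclear receptors that passed the filter, and *Ppara*, the receptor that senses fatty acids in the liver, was at 5.22 CPM in SGC-like cells. *Ppara* was low in all classes, with 43 UMIs in all of them together. Its highest level was in non-myelinating glia-like cells (5.29 ± 7.48 CPM, SD, n = 2), and SGC-like cells were next. Of 7 storage and release genes only *Mgll*, which frees fatty acids from monoacylglycerol, was called in SGC-like cells (75.6 CPM, log2 fold 2.85). Of all genes, 18.1% were called higher there, and the list median was 0.62, against 0.58 over all genes. *Mgll* was higher in non-myelinating glia-like (180 CPM) and smooth muscle-like cells (179 CPM). The droplet coat gene *Plin2* was highest in macrophage-like cells (269 ± 94.3 CPM). *Dgat1*, *Hilpda* and *Dgat2* were highest in the neutrophil-like cells, at 433, 158 and 78.8 CPM. That class was 10 cells of control 1, where 3 UMIs make 118 CPM. *Pnpla2* was highest in smooth muscle-like and *Lipe* in endothelial-like cells (95.1 and 72.7 CPM). *Tspo*, the mitochondrial protein that DBI peptides bind, was at 1242 ± 43.9 CPM (SD, n = 3) in monocyte-like and 177 CPM in SGC-like cells, with a log2 fold of -1.28 (SE 0.15, adjusted p = 2.64e-10) that was under the fold limit. In non-myelinating glia-like cells its log2 fold was 0.07 (adjusted p = 1). After injury 0 genes of these lists were called in any class.

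The genes whose levels over the 15 class means were most like those of a member were ranked by Pearson's r on log2(CPM + 1), among 8058 genes with at least 50 CPM in some class. For *Fabp7* these were *Lgr5* (0.84), *Pcx* (0.84), *Tex40* (0.82), *Ptprz1* (0.82) and *Ednrb* (0.81), the last 2 being gate markers. For *Dbi* they were *Pcdh10* (0.94), *Gm2115*, *Lrrc4c*, *Erbb3* and the gate marker *Ttyh1*. *Fabp5* was most like *Mcee* (0.79), *Degs1*, *Dync1i2*, *Pex7* and *Deb1*, *Fabp3* most like *Rgs17* (0.98), *Sh3gl2*, *4930563E22Rik*, *Sv2a* and *Syt5*, and *Fabp4* most like *Akr1c14* (0.94), *Msx1*, *Tmem88*, *Grrp1* and *8430408G22Rik*. Among the members, r was 0.76 for *Fabp7* and *Fabp5*, 0.72 for *Fabp7* and *Dbi* and 0.58 for *Dbi* and *Fabp5*. The class means share libraries and some rest on 1 library or few cells, so these values describe the pattern only.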

How the data were processed

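The authors deposited raw UMI counts per gene and barcode for each of 4 libraries, made with Cell Ranger on mm10 and analysed in Partek per the submitters' processing notes. Ganglia had been dissociated with papain and collagenase and live cells sorted by FACS, and the 10x Genomics 3′ kit was used. Barcodes with 600 to 15000 UMIs, 500 to 4000 genes and under 10% mitochondrial UMIs were kept, as in the study's methods, which left fewer cells than the study analysed. No doublet caller was run. A cell was gated when at least 3 markers of a list were detected and that list's score led the next by a factor of 2, a rule set after cell numbers had been seen. The members, markers and lists were chosen with earlier results of these data known. Counts were summed per library and class with at least 10 cells and tested over all genes with edgeR 4.0.16 (R 4.3.3) by its quasi-likelihood test with TMM normalization, its filter on low counts and Benjamini-Hochberg adjustment. Class contrasts had the library as a block, and injury contrasts compared 2 libraries with 2. An SE is the size of the log2 fold divided by the root of F. A gene was called when its adjusted p was under 0.05 and its log2 fold at least 2 in size. Shares of cells were computed at 1000 UMIs per cell. The code was tested on simulated data. Genes were named if they were members, list genes at 50 CPM or more in a class, or the 5 genes most like a member, and list genes called in SGC-like cells below that level, as well as *Ppara* and those without a UMI, were named after their values were seen. Alternatives were Leiden clusters (scanpy 1.11.5, 22 clusters of which 18 were named, with 92.9% of gated cells in the same class), a stricter gate, no cell filter, other size factors, DESeq2 1.42.0, no low-count filter, no library block, a replicate block and each library left out. A looser gate, the blood cell pool without the neutrophil-like gate and the large neuron-marked barcodes were added after the data were seen. Promoter windows came from RefSeq on GRCm38.p6 and gene positions from GENCODE on GRCm38. One list gene and the counts over its list are not reported here.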

Additional observations from a re-analysis of the deposited data

How the results depend on the processing

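Over 36 results and 285 alternative values, 248 kept their direction and their side of the test, or moved by less than the spread between libraries. The class folds of *Fabp7*, *Dbi* and *Fabp5* in SGC-like and in non-myelinating glia-like cells kept direction and side in every alternative run. Their size was smaller with Leiden clusters, at 5.97, 4.04 and 2.61 in SGC-like and 4.19, 4.06 and 2.79 in non-myelinating glia-like cells. The exceptions are given here, and their cause was not tested. With Leiden clusters, the *Fabp5* fold in Schwann-like cells was 1.35, *Fabp7* there turned to 0.21, SGC-like over non-myelinating glia-like cells was 1.63 for *Fabp7* (adjusted p = 0.178 in edgeR's test) and -0.016 for *Dbi*, the *Dbi* change after injury in macrophage-like cells was -0.24, and the Schwann-like *Dbi* level was 2885 CPM. *Dbi* in Schwann-like cells passed the fold limit with a stricter gate (2.05) and no library block (2.04). *Fabp5* in SGC-like over non-myelinating glia-like cells turned to 0.36 with a stricter gate, 0.10 with no cell filter and 0.19 with no filter on low counts, none past the test. The *Dbi* change in fibroblast-like cells was -0.044 with a stricter gate, and its interaction was -0.039 with the looser gate, an alternative added after the data were seen.

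With 1 library left out, the ranges were 1.47 to 2.12 for *Dbi* and 1.78 to 2.68 for *Fabp5* in Schwann-like cells, and -0.11 to 0.0035 for *Fabp5* in SGC-like over non-myelinating glia-like cells. After injury they were -0.19 to 0.92 for *Fabp7* in SGC-like cells, and for *Dbi* -0.021 to 0.58 in Schwann-like and -0.23 to 0.41 in fibroblast-like cells (-0.088 without control 1). With no change of sign they were 0.35 to 1.08 for *Fabp5* in SGC-like cells, and for *Dbi* 0.042 to 1.07 in macrophage-like and 0.36 to 0.95 in endothelial-like cells. Member and class pairs called after injury numbered 0 to 2 with a library left out and 1 with no filter on low counts, all in endothelial-like cells. A lone library is assumed there to vary like those of the other condition.

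Shares of cells with a UMI were higher at more UMIs per cell. At 2000 UMIs and unthinned, they were 52.0% and 68.5% for *Fabp5* in SGC-like, 97.4% and 99.5% for *Dbi* in Schwann-like, 12.65% and 24.2% for *Fabp7* in macrophage-like and 57.3% and 77.5% for *Dbi* in macrophage-like cells. T cell-like, B cell-like and neutrophil-like cells numbered at least 10 only in control 1. Free *Fabp7* there was 14.6 CPM in T cell-like and 0 in B cell-like cells alone, from 2 and 0 UMIs. Free *Dbi* there was 78.8 CPM in neutrophil-like cells alone, from 2 UMIs. The fewer neutrophil-like cells of control 2, injury 1 and injury 2 held 7143, 1884 and 523 CPM of *Dbi*. Over the 4 libraries, free RNA from the reference genes was 1.19% of the SGC-like level, in place of 0.645% for *Fabp7*.

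Control and injury libraries share the numbers 1 and 2. The study's methods speak of 2 replicates and of batches, but do not say which control and injury libraries shared a batch. Deviations of same-numbered libraries correlated at 0.25 to 0.44 in the 5 classes. With the replicate number as a block, the changes after injury in SGC-like cells were 0.35 for *Fabp7*, 0.47 for *Dbi* and 0.61 for *Fabp5*, and those of *Dbi* were 0.11 in fibroblast-like, 0.29 in Schwann-like, 0.53 in macrophage-like and 0.59 in endothelial-like cells. No member was called, while the genes called went from 0 to 1 in endothelial-like, 4 in SGC-like, 5 in Schwann-like, 5 in fibroblast-like and 69 in macrophage-like cells. With 2 libraries a condition, no exact permutation of the labels can give a p below 0.333.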

Other observations

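The cells that passed no marker gate had levels of their own and entered no comparison. In 426, 406, 745 and 323 ungated cells of control 1, control 2, injury 1 and injury 2, *Fabp7* was at 265, 2880.3, 2344 and 2443 CPM, *Dbi* at 1622, 3988, 7822 and 4073 CPM and *Fabp5* at 79.8, 139, 250 and 140 CPM. The median ungated cell had 0, 0, 0 and 1 *Fabp7* UMIs and 1.5, 3, 11 and 4 *Dbi* UMIs, so the sums were carried by some of the cells. *Fabp4*, the FABP of adipocytes and small vessels, was found in 5, 5, 8 and 10 of these cells, and its level over them was 7.44, 18.9, 5.50 and 41.6 CPM.

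Barcodes over 15000 UMIs with fewer than 4 neuron markers numbered 5, 3, 9 and 8 in control 1, control 2, injury 1 and injury 2. They held 4334, 3051, 1598 and 49.6 CPM of *Fabp7* and 5835, 4524, 3904 and 744 CPM of *Dbi*, and no *Fabp3* UMI. In control 1 all 387 *Fabp7* UMIs of these barcodes were in 1 barcode.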
